A study of Mus musculus with 12 samples.

Results

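A set of 9 genes of insulin and insulin-like growth factor (IGF) signalling was followed: the ligand Igf1, the receptors Insr, Igf1r and Igf2r, the receptor substrates Irs1 and Irs2, and the IGF binding proteins Igfbp3, Igfbp4 and Igfbp5. They were chosen by name and matched on the gene symbols of the count tables, where 9 of 9 were found among 35791 genes. IGF1 and insulin bind related receptor tyrosine kinases, which phosphorylate the docking proteins IRS1 and IRS2 and so start PI3 kinase and AKT signalling towards mTOR and away from the FOXO transcription factors. Binding proteins hold IGFs in tissue fluid and limit or prolong their access to the receptor, and the IGF2 receptor carries IGF2 and lysosomal enzymes to the lysosome. In the small bowel, IGF1 from mesenchymal cells is known as a growth factor for crypts and muscle, and it has been studied in bowel that grows after resection.

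The series holds 12 RNA-seq libraries of small bowel from male C57BL/6 mice aged 8 to 10 weeks, with 3 libraries in each of 4 groups. The same age is given for Post and Pre libraries, and whether it is the age at surgery or at sampling is not settled here. Post 2'-FL is bowel taken 8 weeks after ileocecal resection, the removal of the end of the ileum with the cecum, from mice given the human milk sugar 2'-fucosyllactose (2'-FL) at 2.5 g/L from day 0. Post control is bowel taken 8 weeks after the same resection without the sugar. Pre 2'-FL and Pre control are the libraries labelled as taken before resection in the 2 arms. A liquid diet is named at day 7 for all animals, before a return to standard chow. The protocol text places all bowels at 8 weeks after resection and the start of the sugar on the day of surgery, so the sources used here do not settle when the Pre libraries were taken or whether Pre 2'-FL had received the sugar. The labels of single libraries were followed. The labels give no bowel segment, do not say whether a mouse gave 1 or more libraries, and show no unoperated or sham-operated group, so p-values measure the spread between libraries and resection cannot be told apart from time or diet.

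All 9 genes passed the filter on low counts. Library totals lay between 5663275 and 9385266 counts, and levels are given in CPM, counts over the TMM-scaled library total, in which a single count was worth at most 0.189 CPM. Enterocyte markers were present in every library, with 8 of 8 genes above 0 and a summed level between 22300 and 64900 CPM, as small bowel should show. Transcript length went with the groups. Spearman's rho between length and a library's centred log2 CPM, taken over genes and so only descriptive, lay between -0.60 and -0.44 in Post 2'-FL, -0.21 and 0.35 in Post control, 0.36 and 0.50 in Pre 2'-FL, and 0.26 and 0.45 in Pre control. The median transcript of all tested genes measured 3036.5 nt, and 8 of the 9 genes are longer. Every change is therefore given as tested and also with fitted curves of length and GC content removed from each library, called corrected below.

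The promoters of Irs2, Irs1 and Igf1r are shown because the results turn on the contrast between the substrates and on the IGF1 receptor. Each is the window of 250 bases before the start of the RefSeq gene in GRCm38.p6, read 5′ to 3′ on the gene's strand, with capitals marking an E-box or a GC box. Irs2 lies at chr8:11008930-11009179 on the minus strand, Irs1 at chr1:82291440-82291689 on the minus strand and Igf1r at chr7:67952007-67952256 on the plus strand.
Irs2: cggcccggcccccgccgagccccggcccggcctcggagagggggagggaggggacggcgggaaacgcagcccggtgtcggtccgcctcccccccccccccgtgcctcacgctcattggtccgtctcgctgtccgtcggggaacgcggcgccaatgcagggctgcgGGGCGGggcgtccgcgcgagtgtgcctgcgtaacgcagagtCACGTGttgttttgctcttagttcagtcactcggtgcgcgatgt
Irs1: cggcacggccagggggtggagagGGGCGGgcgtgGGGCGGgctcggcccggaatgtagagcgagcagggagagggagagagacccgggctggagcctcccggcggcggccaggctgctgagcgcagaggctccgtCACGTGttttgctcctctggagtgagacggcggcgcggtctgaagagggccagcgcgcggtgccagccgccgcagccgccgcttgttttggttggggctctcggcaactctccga
Igf1r: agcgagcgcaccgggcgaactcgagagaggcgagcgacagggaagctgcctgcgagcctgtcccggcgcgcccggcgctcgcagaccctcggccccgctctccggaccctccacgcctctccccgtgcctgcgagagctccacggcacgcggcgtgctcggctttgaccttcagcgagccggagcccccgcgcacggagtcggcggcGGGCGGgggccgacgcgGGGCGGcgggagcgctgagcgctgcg

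Irs2 and Irs1 each held the E-box CACGTG, whose first base lay 44 bases before the start in Irs2 and 115 in Irs1, and Igf1r held none. GC boxes (GGGCGG on either strand) numbered 1 in Irs2, 2 in Irs1 and 2 in Igf1r. Of 32851 windows of this length in the RefSeq table, 6.02% held the E-box and 32.7% the GC box. Sequences were found for 8 of the 9 genes. The windows of Igf1, Igfbp3 and Igfbp4 lie inside the gene spans given below, so they do not precede the outermost start of these genes. The FOXO letters GTAAACA, in 3.17% of all windows, and the cyclic AMP response letters TGACGTCA, in 1.55%, were not in any of these 8 windows. The 5 letters TGACG, in 17.8% of all windows and contained in TGACGTCA, were in the windows of Irs1 and Igf2r. A match or its absence in 1 window is a description of letters and not of binding.

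In the 2'-FL arm, 8 of the 9 genes were lower after resection than before, and Irs2 was the most reduced of them. Of all 13154 genes tested, 30.0% were called lower in that comparison, at an adjusted p under 0.05 in edgeR's quasi-likelihood test with Benjamini-Hochberg adjustment. Corrected for length and GC, 4 of the 9 were called lower (Irs2, Igf1r, Igfbp5 and Igfbp3), against 14.8% of all genes. Control mice had 2 of the 9 lower after resection, Igf1r and Igfbp4, and 0 higher, against 6.33% and 4.42% of all genes. Corrected, 1 of the 9 was called in the control arm, Igf1r towards lower, against 12.6% of all genes called in either direction. With the arms averaged, 8 were lower against 31.1% of all genes, and corrected 4 were lower and 1 (Igf2r) higher, against 18.5% and 24.9%. The median log2 change of the 9 genes was -1.46 in the 2'-FL arm and -0.91 in the control arm, beside -0.13 and -0.05 over all genes. Corrected, the medians of the 9 were -0.53 and -0.63, beside 0.02 and 0.05 over all genes. The corrected count in the 2'-FL arm depended on single libraries: it was 1 without Post 2'-FL 1 or Pre 2'-FL 2, 2 without Post 2'-FL 2 or 3, and 3 or 4 without any other library.

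Post libraries lay wholly below Pre libraries for 8 of the 9 genes in the 2'-FL arm and for 3 in the control arm (Igf1r, Igfbp4 and Igfbp5), as they did for 33.7% and 17.6% of all genes. Between the Post groups, 2'-FL against control, 1 of the 9 was called higher (Igf1) and 3 lower (Insr, Igf2r and Irs2), against 18.8% and 19.3% of all genes. Corrected, 2 were higher (Igf1 and Igfbp4) and 1 lower (Irs2), against 10.3% and 11.4%. The groups did not overlap for these 4 and for Igfbp4, with 2 of the 9 higher and 3 lower, as for 25.2% and 25.4% of all genes. The other 4 genes gave -0.38 ± 0.44 for Igf1r, -0.33 ± 0.55 for Irs1, 0.21 ± 0.42 for Igfbp3 and -0.68 ± 0.57 for Igfbp5 (log2, SE), and none was called. This comparison shares the Post 2'-FL libraries with the 2'-FL arm and the Post control libraries with the control arm.

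**Figure D1:**
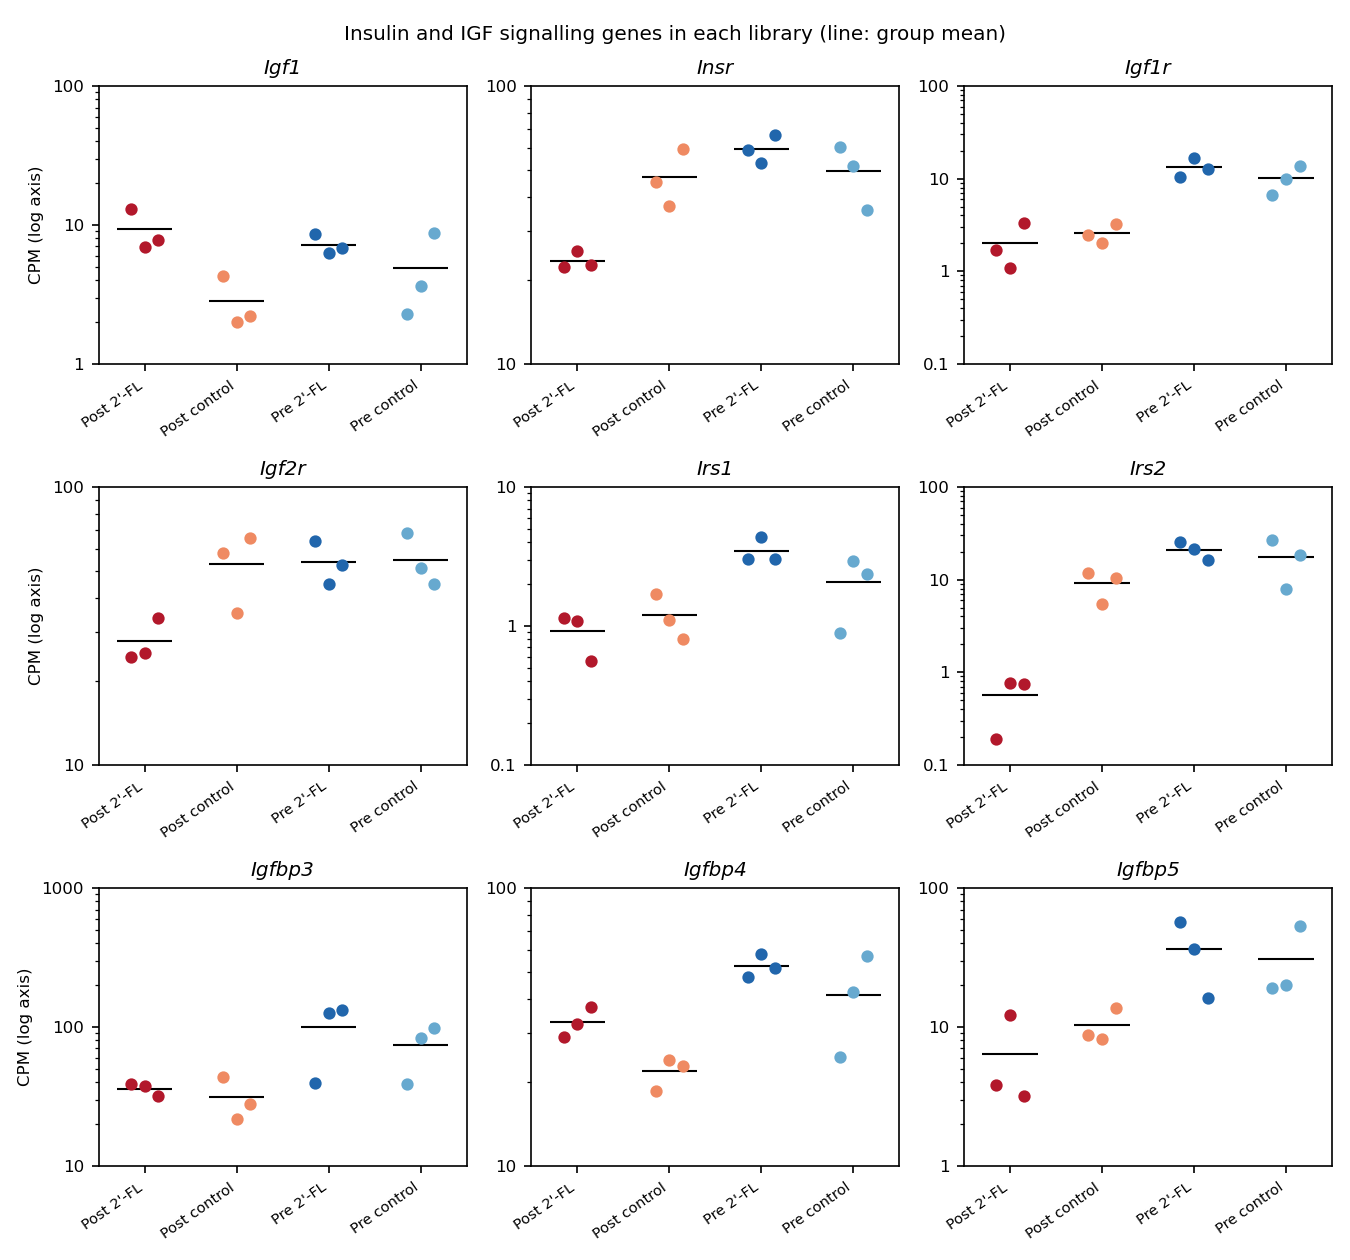
Level of each gene in CPM (log axis) in the 12 libraries; points are libraries, coloured by group, and lines are group means of 3. Irs2 lies below 1 CPM in the 3 Post 2'-FL libraries and above 5 CPM in the other 9, while Igf1r is lower in all 6 Post libraries than in any Pre library.

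Igf1, the ligand (chromosome 10, 87858265 to 87937047, plus strand, 4 exons), has a transcript of 7052 nt that is 6.55% coding, and it was the 1 of the 9 not lower after resection in the 2'-FL arm. Its level was 13.1, 6.93 and 7.81 CPM in Post 2'-FL and 4.31, 2.01 and 2.20 CPM in Post control. Before resection it was 8.58, 6.25 and 6.78 CPM in Pre 2'-FL and 2.29, 3.66 and 8.80 CPM in Pre control. The Post 2'-FL libraries were all above the Post control libraries, while Post and Pre libraries overlapped within both arms. Between the Post groups Igf1 was higher with 2'-FL by 1.70 ± 0.46 (log2, SE; edgeR adjusted p = 0.0106), a 3.25-fold difference. The corrected value was 1.58 ± 0.45 (adjusted p = 0.0235). Without Post 2'-FL 1, the library with the highest Igf1, it was 1.38 as tested and was not called (adjusted p = 0.0586). The corrected call was lost without Post 2'-FL 1 or 3 or Post control 2 or 3, over a range of 1.36 to 1.95. Igf1 has 5 curated transcripts between 651 and 7052 nt, and with the shortest used for the correction the value was 0.77 (adjusted p = 0.186), so its corrected value depends on which transcript is taken. Post against Pre it was not called in either arm, at 0.35 ± 0.43 in the 2'-FL arm and -0.79 ± 0.46 in the control arm.

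Summed levels of smooth muscle and fibroblast markers were higher with 2'-FL between the Post groups, as was Igf1. In that comparison 18.8% of all genes were called higher and 19.3% lower, and corrected 10.3% and 11.4%. Of 8 smooth muscle markers 3 were higher and 0 lower with 2'-FL, with summed levels of 1320 to 1560 CPM in Post 2'-FL and 525 to 817 CPM in Post control. Of 8 fibroblast markers 3 were higher and 1 lower, with sums of 321 to 517 CPM in Post 2'-FL and 130 to 248 CPM in Post control. Corrected, 3 were higher and 0 lower in each of these lists. Of 6 tested macrophage markers 1 was higher and 1 lower, with a median log2 difference of -0.02, and corrected none was called. Their sums were 521, 248 and 186 CPM in Post 2'-FL and 163, 124 and 137 CPM in Post control. Among the Post libraries, Post 2'-FL 1 was the highest in Igf1 and in the smooth muscle, fibroblast and macrophage sums. None of these 3 lists had a gene at 0 throughout a group. Their part in the Igf1 difference was not tested, and in bulk tissue fewer cells of a type cannot be told apart from less RNA per cell.

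The insulin receptor Insr (chromosome 8, 3150922 to 3279649, minus strand, 21 exons, transcript of 9355 nt) was lower after resection in the 2'-FL arm and not in the control arm. It stood at 22.3, 25.4 and 22.7 CPM in Post 2'-FL and at 45.0, 36.9 and 59.2 CPM in Post control. Before resection it stood at 58.7, 52.7 and 66.9 CPM in Pre 2'-FL and at 60.4, 51.5 and 35.9 CPM in Pre control. All 3 Post 2'-FL libraries lay below the other 9. The log2 change was -1.34 ± 0.23 in the 2'-FL arm (edgeR adjusted p = 0.000268) and -0.06 ± 0.22 in the control arm (adjusted p = 0.871). After resection Insr was 2.01-fold lower with 2'-FL than without (adjusted p = 0.00364). Over both arms it was -0.70 ± 0.16 as tested (adjusted p = 0.00186) and 0.08 ± 0.13 corrected. Corrected, none of the other differences was called, at -0.21 ± 0.19 in the 2'-FL arm, 0.36 ± 0.19 in the control arm and -0.40 ± 0.19 between the Post groups.

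Igf1r, the IGF1 receptor (chromosome 7, 67952257 to 68233668, plus strand, 21 exons), has the longest transcript of the 9 at 11409 nt, of which 36% is coding. It was lower after resection in both arms, as tested and corrected. Post 2'-FL libraries held 1.70, 1.08 and 3.35 CPM (9, 7 and 18 counts) and Pre 2'-FL libraries 10.3, 16.6 and 12.7 CPM. Post control libraries held 2.47, 2.01 and 3.21 CPM (16, 11 and 32 counts) and Pre control libraries 6.61, 9.85 and 13.7 CPM. Neither pair of groups overlapped. The log2 change was -2.70 ± 0.40 in the 2'-FL arm (edgeR adjusted p = 0.000115) and -1.94 ± 0.37 in the control arm (adjusted p = 0.00869), and the arms' changes differed by -0.76 ± 0.55 (adjusted p = 0.353). Without Post control 2 the control arm's change was -1.78 and was not called (adjusted p = 0.0511). Corrected, it was -1.26 ± 0.38 (adjusted p = 0.0204) and -1.42 ± 0.36 (adjusted p = 0.0231) in the same order. These corrected calls are near the threshold: leaving out 1 library in turn gave -1.84 to -0.87 in the 2'-FL arm and -1.62 to -1.16 in the control arm, and the call was lost without Post 2'-FL 1 or 2 or Pre 2'-FL 2, and without any Post control library or Pre control 2 or 3. Averaged over both arms, the corrected change of -1.34 ± 0.26 (adjusted p = 0.00133) was called whichever library was left out.

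Igf2r (chromosome 17, 12682406 to 12769706, minus strand, 48 exons), the carrier of IGF2 and mannose-6-phosphate proteins, has a transcript of 8887 nt that is 83.9% coding. It stood at 24.4, 25.3 and 33.7 CPM in Post 2'-FL and at 58.1, 35.1 and 65.4 CPM in Post control. Before resection the levels were 64.1, 44.7 and 52.4 CPM in Pre 2'-FL and 68.4, 51.2 and 44.9 CPM in Pre control. The Post 2'-FL libraries lay below the other 9, and the remaining 3 groups overlapped. Its direction turned with the correction in both arms: it was -0.95 ± 0.25 in the 2'-FL arm as tested (edgeR adjusted p = 0.00553) and 0.46 ± 0.22 corrected (adjusted p = 0.121), and -0.05 ± 0.24 and 0.43 ± 0.22 in the control arm. Over both arms it was called lower as tested at -0.50 ± 0.18 (adjusted p = 0.0250) and higher corrected at 0.45 ± 0.16 (adjusted p = 0.0332). Each of these calls was lost without any 1 of 7 libraries, the first over -0.58 to -0.34 and the second over 0.37 to 0.56. Between the Post groups Igf2r was -0.93 ± 0.25 with 2'-FL (adjusted p = 0.0101), at -0.69 and not called without Post control 3 (adjusted p = 0.0768), and -0.08 ± 0.22 corrected. The arms' changes differed by -0.90 ± 0.35 (adjusted p = 0.0899), called without Post control 2 (-1.06), and by 0.03 ± 0.31 corrected. Airn, a noncoding RNA known to be transcribed across this locus on the opposite strand, could add reads if counting ignored strand, which is not given in the sources used here.

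The receptors were also compared as a ratio within each library, in which library scaling enters only through the small constant added. The log2 ratio of Igf1r over Insr (0.5 CPM added to each) was -3.37, -4.04 and -2.59 in Post 2'-FL and -3.94, -3.90 and -4.01 in Post control. It was -2.46, -1.64 and -2.35 in Pre 2'-FL and -3.10, -2.33 and -1.36 in Pre control. Within each arm the Post libraries lay below the Pre libraries, and across arms they overlapped. Over all libraries it averaged -3.64 ± 0.57 in Post and -2.21 ± 0.62 in Pre (SD, n = 6 each). The difference of -1.44 had a two-sided p of 0.00500 in an exact permutation test within arms, the smallest that 400 arrangements can give, and 0.0200 after adjustment over the 4 ratios computed. Leaving out 1 library in turn gave -1.65 to -1.27, and without Post control 2 the adjusted p by the same test missed the threshold, at 0.0533. Corrected for length and GC the difference was -1.33 (exact permutation test, adjusted p = 0.0400).

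**Figure D2:**
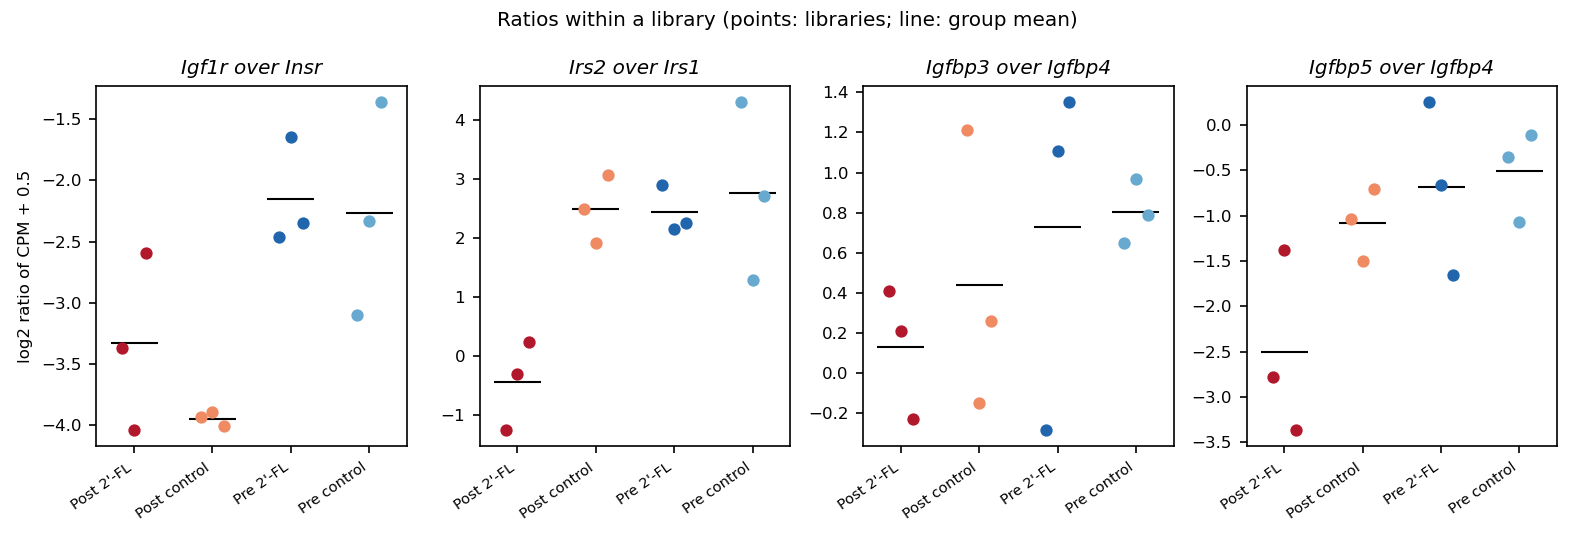
Log2 ratios of gene pairs within each library (0.5 CPM added), by group; points are libraries and lines group means of 3. Igf1r over Insr is lower in Post than in Pre within both arms, and Irs2 over Irs1 is below 0.3 in the 3 Post 2'-FL libraries and above 1.2 in the other 9.

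Irs2, an insulin receptor substrate (chromosome 8, 10984681 to 11008929, minus strand, 2 exons, transcript of 6323 nt), was nearly lost in the Post 2'-FL libraries. They held 0.189, 0.770 and 0.744 CPM, from deposited estimated counts of 1, 5 and 3.5. Post control libraries held 11.9, 5.48 and 10.3 CPM. Pre 2'-FL libraries held 25.6, 21.3 and 16.4 CPM, and Pre control libraries 27.0, 7.92 and 18.3 CPM. The Post 2'-FL libraries lay below the other 9, the Post control and Pre control groups overlapped, and the Post control libraries were all below the Pre 2'-FL ones.

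Irs2 changed by -5.15 ± 0.56 on the log2 scale in the 2'-FL arm (edgeR adjusted p = 3.14e-05), a 35.4-fold difference, and by -3.75 ± 0.56 corrected (adjusted p = 0.000354). In the control arm it was -0.92 ± 0.39 (adjusted p = 0.131) and -0.49 ± 0.36 corrected (adjusted p = 0.365). Leaving out 1 library in turn gave -1.26 to -0.46 there as tested, and without Pre control 2 it was called lower (-1.26, adjusted p = 0.0480). Between the Post groups the difference was -3.96 ± 0.58 (adjusted p = 0.000789), and -3.05 ± 0.58 corrected (adjusted p = 0.00496). The difference between the arms' changes was -4.22 ± 0.71 (adjusted p = 0.0159), where 8.03% of all genes were called lower. Corrected, it was -3.26 ± 0.70 (adjusted p = 0.0585) and not called; in that corrected comparison edgeR called 0 of 13154 genes, while 2636 genes, 2 of them among the 9, had an unadjusted p under 0.05. With so few counts in Post 2'-FL the size of the fold is uncertain, and part of the Irs2 counts were fractional, as happens when a read is shared among several genes or sites.

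Irs2 also had the lowest change of its length class in the 2'-FL arm and between the Post groups. The tested genes were cut into 10 classes of equal size by transcript length. Among the 1265 genes in its class (5007 to 6526 nt), none had a lower log2 change in the 2'-FL arm, where the median was -0.84 and 53.8% were called lower. The same held between the Post groups, where the median of that class was -0.43. In the control arm, 16.8% of them lay below Irs2. Marker lists also moved in these comparisons. Of 6 tested fat tissue markers 4 were lower in the 2'-FL arm, and corrected 5 (median -3.25), beside 30.0% and 14.8% of all genes. In the control arm 0 were called (corrected median -0.37). Their summed level was 76.1 to 113 CPM in Post 2'-FL and 110 to 143 CPM in Post control. It was 551, 156 and 194 CPM in the Pre 2'-FL libraries and 132 to 167 CPM in Pre control. The median log2 difference of these markers between the Pre groups, 2'-FL against control, was 2.60, and 0 were called. Between the Post groups, where Irs2 was also lower, 1 fat marker was called lower, and corrected 0. Of 8 enterocyte markers 4 were lower with 2'-FL between the Post groups, and corrected 3, beside 19.3% and 11.4% of all genes. Their sums were 61400 to 64900 CPM in Post 2'-FL and 49100 to 63200 CPM in Post control. No gene of either list was at 0 throughout a group, and their part in the Irs2 difference was not tested.

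Over the 12 libraries, the genes most like Irs2 in their centred log2 CPM were Setd1b, Spen and Polr2a, with root mean square differences of 0.57, 0.59 and 0.64, against a median of 1.96 over 10127 genes. Their transcripts of 8857, 12299 and 6740 nt are longer than that of Irs2. After correction the genes most like Irs2 were Hmgn5, Slc7a8 and Il2rg, at 0.56, 0.60 and 0.61, with a median of 1.42, so no gene was in both lists.

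Irs1, the other substrate (chromosome 1, 82233105 to 82291439, minus strand, 2 exons, transcript of 9144 nt), was expressed at a low level throughout. It stood at 1.14, 1.08 and 0.558 CPM in Post 2'-FL and at 1.69, 1.10 and 0.802 CPM in Post control. Before resection it stood at 3.02, 4.38 and 3.05 CPM in Pre 2'-FL and at 0.890, 2.95 and 2.38 CPM in Pre control. Post 2'-FL and Pre 2'-FL did not overlap, while the control groups did. The change in the 2'-FL arm was -1.88 ± 0.49 (edgeR adjusted p = 0.00520), and -0.53 ± 0.51 corrected (adjusted p = 0.439). It was not called in the control arm (-0.83 ± 0.47) or between the Post groups (-0.33 ± 0.55, with a 95% interval of -1.59 to 0.93), and Post 2'-FL held 3 to 7 counts per library.

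The ratio of Irs2 over Irs1 separated the Post 2'-FL libraries. On the log2 scale with 0.5 CPM added it was -1.25, -0.31 and 0.23 in Post 2'-FL and 2.49, 1.91 and 3.06 in Post control. It was 2.89, 2.16 and 2.25 in Pre 2'-FL and 4.30, 1.29 and 2.71 in Pre control. Irs2 was therefore above Irs1 in 9 of 9 libraries outside Post 2'-FL, as CPM that are not divided by length. Post minus Pre was -2.88 in the 2'-FL arm and -0.28 in the control arm. Over both arms it was -1.58, with an exact permutation p of 0.0400 and an adjusted p of 0.0533, and corrected also -1.58 with an adjusted p of 0.0450. Without Post control 1 or 3 or Pre control 2 the uncorrected ratio passed the threshold, within a range of -1.99 to -1.13.

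All 3 binding proteins were lower after resection in the 2'-FL arm as tested. Igfbp3 (chromosome 11, 7206086 to 7215498, minus strand, 5 exons), the main IGF carrier of serum, has the shortest transcript of the 9 at 2421 nt. It stood at 38.6, 37.7 and 31.6 CPM in Post 2'-FL and at 43.9, 21.8 and 27.7 CPM in Post control. Before resection it stood at 39.3, 126 and 132 CPM in Pre 2'-FL and at 39.0, 83.5 and 98.5 CPM in Pre control. Library 1 of each Pre group was close to the Post level, and the other 4 Pre libraries were above all 6 Post libraries. The change was -1.46 ± 0.42 in the 2'-FL arm (edgeR adjusted p = 0.00879) and -1.24 ± 0.41 in the control arm (adjusted p = 0.0655). The correction moved it little, to -1.33 ± 0.41 (adjusted p = 0.0231) and -1.17 ± 0.41 (adjusted p = 0.0746). The corrected call in the 2'-FL arm was lost without any 1 Post 2'-FL library or without Pre 2'-FL 2 or 3 (-1.71 to -1.05), and the control arm's change was called, as tested and corrected, without Pre 2'-FL 1 (-1.22 as tested) or Pre control 1 (-1.52 as tested). Over both arms it was -1.35 ± 0.29 as tested and -1.25 ± 0.29 corrected (adjusted p = 0.00399). In its length class the median change in the 2'-FL arm was 0.07 and 4.66% of the genes lay below Igfbp3.

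Endothelial markers moved with Igfbp3. Their 7 genes summed to 22.2, 27.3 and 32.2 CPM in Post 2'-FL and to 40.5, 26.0 and 30.7 CPM in Post control. The sums were 69.4, 117 and 147 CPM in Pre 2'-FL and 23.9, 93.5 and 117 CPM in Pre control, so that library 1 was the lowest in each Pre group, as for Igfbp3. Of the 7, 6 were called lower in the 2'-FL arm and 1 in the control arm, beside 30.0% and 6.33% of all genes. Corrected, 3 were lower in the 2'-FL arm, beside 14.8% of all genes, and 0 in the control arm, and none was at 0 throughout a group. Library 1 was also the lowest of each Pre group in summed fibroblast markers (333 CPM in Pre 2'-FL and 143 CPM in Pre control). The same held for macrophage markers (240 and 263 CPM). The part of these lists in the Igfbp3 difference was not tested.

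Igfbp4 (chromosome 11, 99040005 to 99052655, plus strand, 4 exons, transcript of 3831 nt), which mostly restrains IGF action, stood at 29.0, 32.5 and 37.2 CPM in Post 2'-FL and at 18.6, 24.1 and 22.9 CPM in Post control. Before resection it stood at 47.7, 57.8 and 51.5 CPM in Pre 2'-FL and at 24.7, 42.3 and 56.9 CPM in Pre control. Post libraries lay below Pre libraries in both arms, and Post 2'-FL above Post control. The change was -0.67 ± 0.25 in the 2'-FL arm (edgeR adjusted p = 0.0337), which turned to 0.21 ± 0.23 corrected (adjusted p = 0.488), and the call was lost without any 1 of 9 of the 12 libraries. For the control arm it was -0.91 ± 0.25 (adjusted p = 0.0339) and -0.63 ± 0.23 corrected (adjusted p = 0.0846), and it was not called without any 1 Post control library or without Pre control 2 or 3. Between the Post groups it was 0.59 ± 0.25 (adjusted p = 0.0814), called without Pre control 1 (0.65) or Pre control 3 (0.58), and corrected 1.19 ± 0.24 higher with 2'-FL (adjusted p = 0.00604), a call that held whichever library was left out.

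Igfbp5 (chromosome 1, 72858065 to 72874865, minus strand, 4 exons, transcript of 6006 nt), a binding protein that is known from intestinal smooth muscle, stood at 3.79, 12.2 and 3.16 CPM in Post 2'-FL and at 8.78, 8.23 and 13.8 CPM in Post control. Before resection it stood at 56.9, 36.4 and 16.1 CPM in Pre 2'-FL and at 19.2, 19.9 and 52.9 CPM in Pre control. All 6 Post libraries lay below all 6 Pre libraries, as they also did for Igf1r and for 8.94% of all genes. The change was -2.49 ± 0.56 in the 2'-FL arm (edgeR adjusted p = 0.00192), and -1.45 ± 0.51 corrected (adjusted p = 0.0392), a call lost without Post 2'-FL 1 or 3, Post control 2 or 3, or Pre 2'-FL 1 or 2 (-2.22 to -0.99). Its control arm change was -1.56 ± 0.53 (adjusted p = 0.0689), and -1.19 ± 0.48 corrected (adjusted p = 0.109). As tested it was called there without Post 2'-FL 2 (-1.55, adjusted p = 0.0428) or Pre control 1 (-1.77, adjusted p = 0.0492), and in a fit of only the 6 control libraries (-1.54, adjusted p = 0.0326). Enteric neuron and glia markers were also low in Post, with sums over 8 genes of 8.01 to 11.0 CPM in Post 2'-FL, 5.48 to 8.47 CPM in Post control, 25.4 to 33.1 CPM in Pre 2'-FL and 15.6 to 32.0 CPM in Pre control. Of their 7 tested genes 5 were called lower in the 2'-FL arm and 4 in the control arm, beside 30.0% and 6.33% of all genes. Corrected, the counts were again 5 and 4, beside 14.8% of all genes lower in the 2'-FL arm and 12.6% called in either direction in the control arm. Of 8 fibroblast markers 4 were lower and 1 higher in the 2'-FL arm and 2 lower in the control arm, with medians of -1.19 and -1.25. Of all genes 25.3% were called higher in the 2'-FL arm, and corrected 21.1%. Corrected, 1 fibroblast marker was lower and 1 higher in the 2'-FL arm and 0 were called in the control arm (medians -0.37 and -0.94). Their summed levels were 321 to 517 CPM in Post 2'-FL, 130 to 248 CPM in Post control, 333 to 595 CPM in Pre 2'-FL and 143 to 679 CPM in Pre control. Of 8 smooth muscle markers 3 were lower and 1 higher in the 2'-FL arm and 2 lower in the control arm, with medians of -0.25 and -0.57. Corrected, 1 was lower and 1 higher in the 2'-FL arm and 2 were lower in the control arm (medians -0.27 and -0.53). The part of these lists in the Igfbp5 change was not tested.

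Within the binding proteins, Igfbp5 over Igfbp4 averaged -1.80 ± 1.04 in Post and -0.60 ± 0.69 in Pre on the log2 scale (SD, n = 6 each), a difference of -1.20 (exact permutation test, p = 0.0300, adjusted p = 0.0533). Igfbp3 over Igfbp4 averaged 0.29 ± 0.52 in Post and 0.77 ± 0.57 in Pre, a difference of -0.48 (exact permutation test, p = 0.170, adjusted p = 0.170). Corrected, the differences were -1.08 and -0.96, each with an adjusted p of 0.0450 by the same test.

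**Figure D3:**
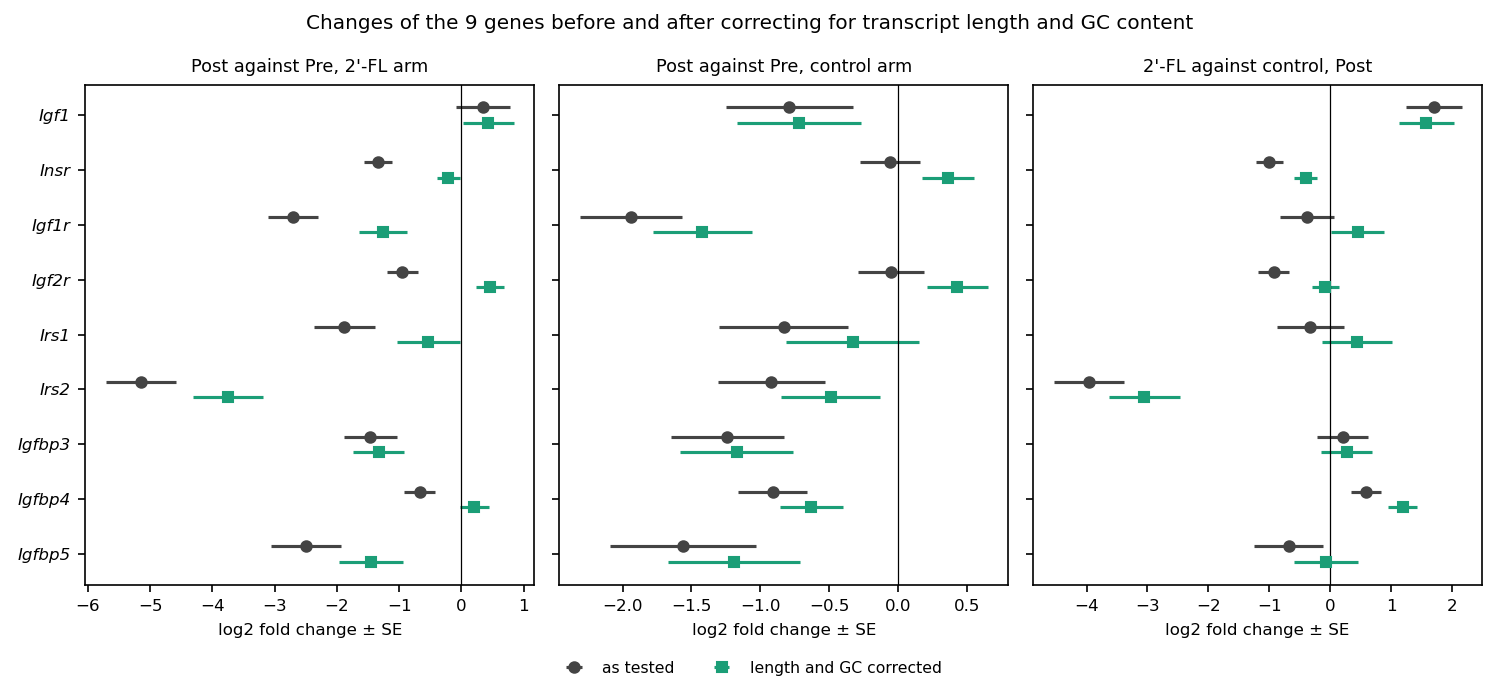
Log2 changes of the 9 genes with their SE, as tested (circles) and corrected for transcript length and GC content (squares), for the 2'-FL arm and the control arm (Post against Pre) and for 2'-FL against control in Post; the axes of the 3 panels differ. Irs2 stays far below 0 in the 2'-FL arm and between the Post groups after correction, while Insr, Igf2r and Igfbp4 move to near 0 or above it in the 2'-FL arm.

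The length trend was steepest in the 2'-FL arm. In the 2'-FL arm the median change of the class of genes with the longest transcripts (from 6527 nt) was -1.20, and 67.9% of them were called lower, while the class with the shortest had a median of 1.18. The control arm had medians for these classes of -0.37 and 0.22, and the Post groups -0.61 and 0.96. Among the longest class in the 2'-FL arm, 44.7% of genes lay below Insr, 58.9% below Igf2r, 22.4% below Irs1, 5.77% below Igf1r and 93.4% below Igf1. For the control arm, 2.53% lay below Igf1r. For the Post groups, 99.8% lay below Igf1. Both places of Igf1 rest on its transcript of 7052 nt, the longest of 5 curated ones, of which the shortest has 651 nt. With the shortest used for the correction, its Post difference was 0.77 (edgeR adjusted p = 0.186).

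**Figure D4:**
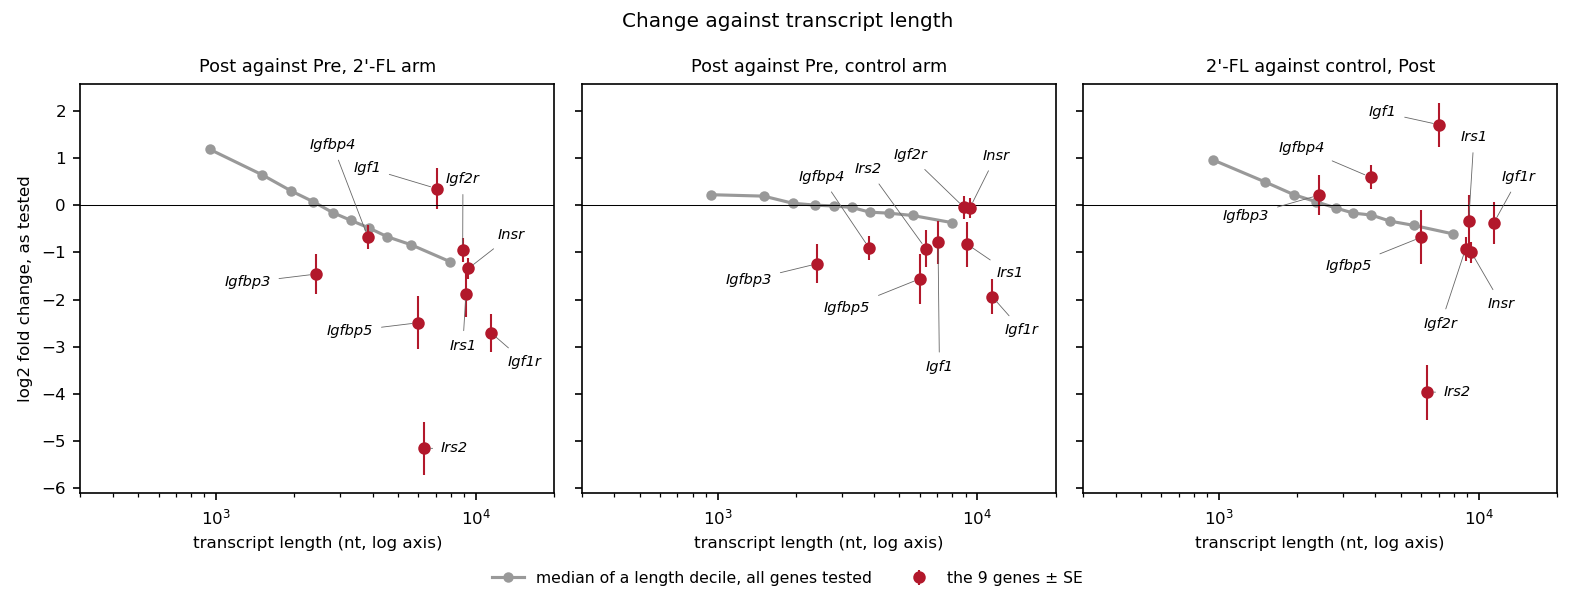
Log2 change as tested against transcript length in nt (log axis); grey points joined by lines are medians of 10 classes of all tested genes with a length, and red points are the 9 genes with their SE. Insr and Igf2r lie near the grey line in the 2'-FL arm, and Irs2 far below it. Igf1, placed at its longest curated transcript, lies above the line between the Post groups.

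Levels between genes were compared as CPM per kb of transcript. In Pre control the order was Igfbp3 (30.4 ± 12.8), Igfbp4 (10.8 ± 4.22), Igf2r (6.17 ± 1.37), Insr (5.27 ± 1.33), Igfbp5 (5.11 ± 3.21), Irs2 (2.80 ± 1.51), Igf1r (0.880 ± 0.310), Igf1 (0.697 ± 0.487) and Irs1 (0.226 ± 0.116), as mean ± SD over 3 libraries. Igf2r, Insr and Igfbp5 differed by less than their spread, and so did Igf1r and Igf1. In Post 2'-FL the binding proteins Igfbp3 (14.9 ± 1.57) and Igfbp4 (8.59 ± 1.08) were again the highest, followed by Igf2r (3.13 ± 0.576) and Insr (2.51 ± 0.179). The lowest 3 were then Igf1r (0.179 ± 0.103), Irs1 (0.101 ± 0.0348) and Irs2 (0.0898 ± 0.0519), of which Irs1 and Irs2 differed by less than their spread. Igf1 stood at 1.31 ± 0.470 in Post 2'-FL and 0.403 ± 0.181 in Post control, which placed its mean above that of Igf1r in both Post groups. In Post control Igf1r stood at 0.224 ± 0.0529, a difference within the spread of Igf1. The values of Igf1 per kb, and its place in each group, rest on its transcript of 7052 nt, the longest of 5 curated ones, of which the shortest has 651 nt.

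Between the groups labelled as before resection, 2'-FL against control, edgeR called 0 of the 9 genes, and 0 had an unadjusted p under 0.05. The same test called 0.0152% of all genes (2 of 13154), and DESeq2 called 0 of the 9 and 24 genes in all. The log2 differences ran from -0.03 ± 0.24 for Igf2r to 0.72 ± 0.42 for Irs1, and Irs1 was the only 1 of the 9 whose Pre groups did not overlap, which 4.31% of all genes shared in that direction. For Irs2 the difference was 0.26 ± 0.38 with a 95% interval of -0.60 to 1.13, and for Igf1 0.56 ± 0.43 with an interval of -0.44 to 1.55, so differences of this size between the Pre groups could not be seen at this depth and spread.

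Genes whose levels over the 12 libraries were most like those of the IGF1 receptor and its ligand were looked up in the same way as for Irs2. For Igf1r they were Fry, Gaa and Agt, with root mean square differences of 0.23, 0.38 and 0.42, and after correction Fry, Rgl1 and Pls3 at 0.24, 0.35 and 0.35. The medians over 10127 genes were 1.26 and 0.89. For Igf1 they were Cav2, Sparc and Clec7a at 0.25, 0.29 and 0.35, and after correction Ptprs, Mzb1 and Pcdh7 at 0.28, 0.31 and 0.31. The medians were 0.92 and 0.86.

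The wider pathway was read from lists of 69 further genes, of which 61 were tested, with a median transcript of 4213 nt. In the 2'-FL arm 4 were called higher and 35 lower after resection, with a median log2 change of -0.85, beside 25.3% higher and 30.0% lower of all genes and a median of -0.13. Corrected, 11 were higher and 12 lower with a median of -0.18, beside 21.1% and 14.8% of all genes and 0.02. The control arm had 2 higher and 1 lower, beside 4.42% and 6.33% of all genes (medians of -0.19 for the lists and -0.05 for all genes). Corrected, it had 4 higher and 0 lower, beside 12.6% of all genes called in either direction. The Post comparison had 0 higher and 25 lower (median -0.56), beside 18.8% and 19.3% of all genes, and corrected 2 and 11 (median -0.15), beside 10.3% and 11.4%. All 4 FOXO factor genes were lower in the 2'-FL arm (median -1.64), 1 of them when corrected (median -0.96), and 0 of 4 were called in the control arm. Of the PI3 kinase and AKT genes 7 of 10 were lower in the 2'-FL arm and 1 of 10 in the control arm, and corrected 2 lower and 1 higher in the 2'-FL arm and 0 lower and 1 higher in the control arm. Ins1, Ins2, Igfbp1 and Irs4 were at 0 in all 12 libraries, and Igfbp1 and the insulin genes are known mainly from liver and pancreas.

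Named from these lists by smallest p, 3 in each direction and arm, Igfbp6 was the largest increase. Igfbp6, a binding protein with a preference for IGF2 (transcript of 1112 nt), held 11.6, 13.7 and 8.19 CPM in Post 2'-FL and 5.70, 5.67 and 5.81 CPM in Post control. Pre 2'-FL libraries held 2.66, 1.25 and 0.678 CPM and Pre control libraries 0, 0.711 and 0.238 CPM. Every Post library was above every Pre library, opposite to Igfbp5. Its change was 2.80 ± 0.49 in the 2'-FL arm (edgeR adjusted p = 0.000332) and 4.01 ± 0.59 in the control arm (adjusted p = 0.00245), and corrected 2.47 and 4.02. With levels so near 0 in the Pre control libraries, the size of the fold in the control arm is uncertain. Ccng2, a cyclin gene induced by FOXO factors, was higher in both arms, by 1.74 ± 0.33 (adjusted p = 0.000603) and 1.32 ± 0.32 (adjusted p = 0.0229). It was the 1 of 10 listed FOXO target genes called higher in each arm, beside 25.3% and 4.42% of all genes. In the 2'-FL arm 4 of the 10 were lower (median -0.75), beside 30.0% of all genes. Corrected, 3 were higher and 2 lower there (median -0.51), beside 21.1% and 14.8% of all genes. The control arm had 0 lower as tested (median 0.08), beside 6.33% of all genes. Rheb, the small GTPase that activates mTOR, was higher in the 2'-FL arm by 0.81 ± 0.16 (adjusted p = 0.000854) but by 0.16 corrected (adjusted p = 0.404), and in the control arm stood at 0.46 ± 0.16 (adjusted p = 0.0748).

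Pik3r1, which encodes the regulatory PI3 kinase subunit that docks on the substrates, fell in both arms. It held 20.3, 28.0 and 19.0 CPM in Post 2'-FL and 66.7, 88.1 and 104 CPM in Pre 2'-FL. It held 42.1, 36.9 and 53.1 CPM in Post control and 74.4, 78.2 and 69.3 CPM in Pre control, with no overlap in either arm. The log2 change was -1.94 ± 0.22 (edgeR adjusted p = 3.63e-05) in the 2'-FL arm and -0.74 ± 0.21 (adjusted p = 0.0380) in the control arm, and corrected -1.15 (adjusted p = 0.000624) and -0.44 (adjusted p = 0.122). The docking protein gene Gab2 changed by -2.02 ± 0.27 on the log2 scale in the 2'-FL arm, and corrected by -0.90 (adjusted p = 0.00567). Tsc2, part of the complex that restrains mTOR, was at -1.62 ± 0.21 as tested and -0.29 corrected, where it was not called (adjusted p = 0.135). The control arm's other 2 smallest p towards lower were Insrr at -1.72 ± 0.54 (adjusted p = 0.0551) and Igfbp7 at -1.10 ± 0.41 (adjusted p = 0.0916), and neither was called.

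**Figure D5:**
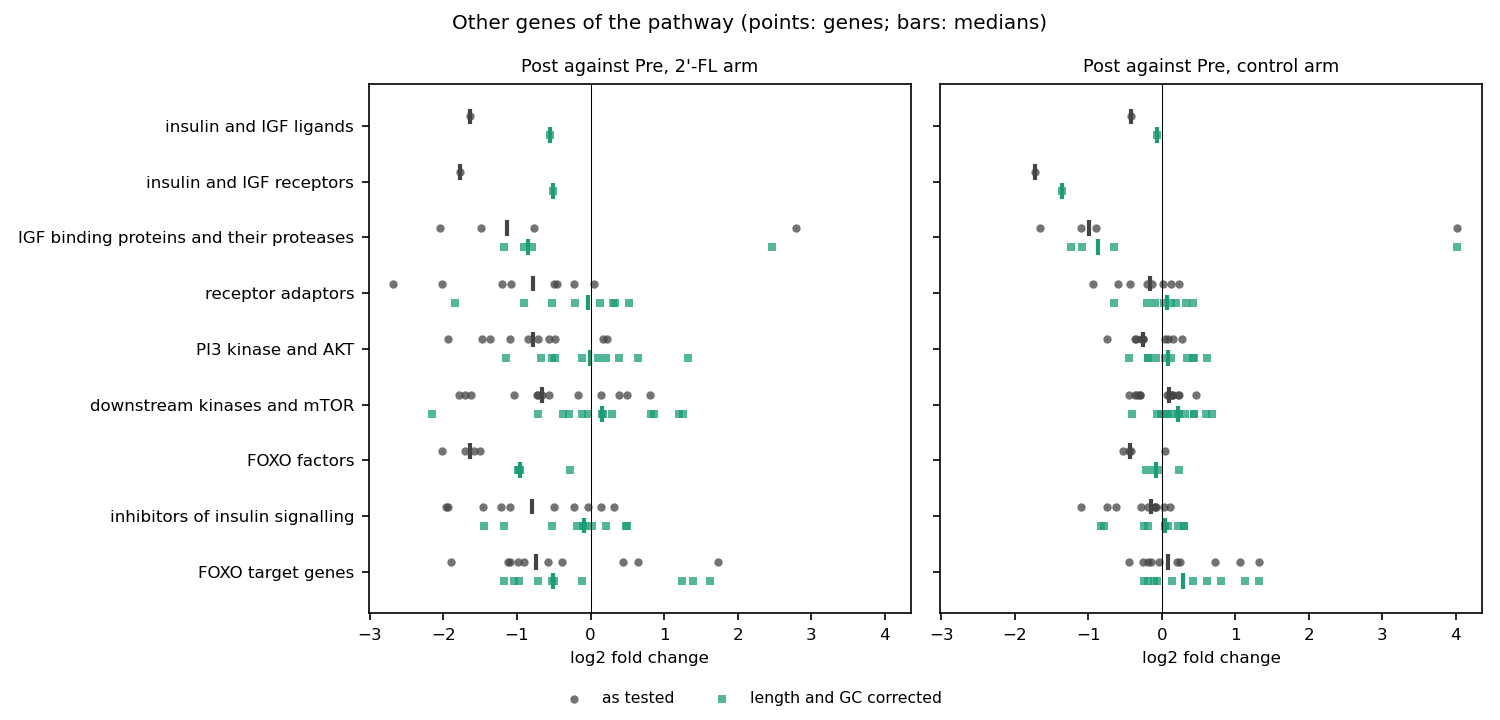
Log2 changes of the 61 tested pathway genes by list, after against before resection, in both arms; circles are values as tested, squares corrected values, and bars list medians. Most list medians lie left of 0 in the 2'-FL arm as tested and nearer 0 when corrected, and the gene far to the right in both arms is Igfbp6.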

How the data were processed

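RNA was sequenced from 12 small bowel libraries in 4 groups of 3, taken from the labels of single libraries. The deposited values are estimated counts per gene, not normalized: between 15.2 and 20.5% of entries per library hold fractions, and the submitters' processing notes name mm10 and DESeq. The aligner, counting program, annotation and strand setting are not given in the sources used here. Entries of genes listed at several places (486 of 36186) were summed to 35791 genes and rounded to whole counts. Genes with low counts were removed with filterByExpr, which left 13154, and 1 edgeR quasi-likelihood model (TMM scaling, 4 group means, 8 residual degrees of freedom) gave log2 changes, SEs and Benjamini-Hochberg adjusted p-values, called under 0.05. The corrected values came from the same model with offsets from splines (4 df) on the length and GC content of the longest GENCODE M21 transcript that matches a curated RefSeq transcript, available for 12654 genes. CPM are counts over TMM-scaled library totals, where 1 count was worth at most 0.189 CPM. Ratios within libraries were tested by exact permutation within arms. Coordinates and promoters are from RefSeq GRCm38.p6. R 4.3.3, edgeR 4.0.16, DESeq2 1.42.0 and limma 3.58.1 were used.

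The 9 genes, the pathway and marker lists and the tests were chosen with earlier results of these data known. Values are given for all 9 genes. From the pathway lists the 3 genes with the smallest p in each direction and arm were named, and the genes most like Irs2, Igf1r and Igf1 are the 3 of at least 5 CPM on average with the smallest root mean square difference of centred log2 CPM. Alternatives were DESeq2's test and its size factors, no filter, only the 6 libraries compared, a replicate block, each library left out, and a pseudocount of 0.1 CPM for the ratios. Length offsets without GC, the shortest transcript, and corrected fits with a library left out were added after the data had been seen.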

Additional observations from a re-analysis of the deposited data

Results flagged for a closer look

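The change of Irs2 after resection differed between the arms, by -4.22 ± 0.71 on the log2 scale (SE; edgeR adjusted p = 0.0159), with the larger fall in the 2'-FL arm. All 3 Post 2'-FL libraries lay below all 3 Post control libraries, while the Pre groups overlapped. Corrected for length and GC the difference was -3.26 ± 0.70 (adjusted p = 0.0585), which is not called. It ranged from -3.75 to -2.90 when 1 library was left out, and was called without Post 2'-FL 2 or Post control 2.

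The change of Insr also differed between the arms, by -1.28 ± 0.31 (edgeR adjusted p = 0.0196), with lower levels in the 3 Post 2'-FL libraries than in the other 9. Without Post control 3 it was -1.01 and not called (adjusted p = 0.0715), and corrected for length and GC it was -0.57 ± 0.27 (adjusted p = 0.253). The part of transcript length in the difference between the arms was not tested beyond this correction.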

How the results depend on the processing

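With 3 libraries a group, low counts of Irs1, Irs2, Igf1r and Igf1 and no unoperated group, sizes of folds are uncertain, and resection cannot be told apart from time. The results were recomputed 1782 times in all under an alternative: 1505 kept their direction and side of the threshold, 64 turned in direction, 87 lost the call, 34 gained it and 92 counts moved by more than 1.5 times. Irs2 in the 2'-FL arm and between the Post groups was called lower under every alternative run. Except where a sentence says otherwise, the cause of a move was not tested.

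Length and GC offsets moved the most. The calls among the 9 genes were then 4 lower in the 2'-FL arm, 1 lower in the control arm, 4 lower and 1 higher over both arms, 2 higher and 1 lower between the Post groups, and 0 for the difference between arms. The whole table gave 4722 calls for the 2'-FL arm, 2858 between the Post groups and 0 for the difference between arms, where the change of Irs2 was -3.26. Directions turned for Igf1r (0.45) and Irs1 (0.44) between the Post groups, for Igf2r (0.46) and Igfbp4 (0.21) in the 2'-FL arm, for Igf2r (0.43) and Insr (0.36) in the control arm, for Igf2r (0.45) and Insr (0.08) over both arms, and for Igf1r (0.16) and Igf2r (0.03) in the difference between arms. The corrected ratios Igfbp3 over Igfbp4 (-0.96), Igfbp5 over Igfbp4 (-1.08) and Irs2 over Irs1 (-1.58) passed the threshold.

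With the shortest curated transcript of each gene, an alternative added after seeing the data, the members' calls were 4 lower in the 2'-FL arm, 1 in the control arm, 5 lower and 1 higher over both arms, 1 lower and 1 higher between the Post groups and 1 for the difference between arms, with 3206 genes called between the Post groups and 133 for that difference. Turned values were 0.45 (Igf1r) and 0.44 (Irs1) between the Post groups, -0.68 (Igf1), 0.47 (Igf2r) and 0.27 (Igfbp4) in the 2'-FL arm, 0.44 (Igf2r) and 0.37 (Insr) in the control arm, 0.45 (Igf2r) and 0.09 (Insr) over both arms, and 0.17 (Igf1r) and 0.03 (Igf2r) for the difference between arms.

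With length offsets without GC, also added after seeing the data, the calls were 4 lower and 1 higher (Igf1, at 1.35) in the 2'-FL arm, 1 lower in the control arm, 5 lower over both arms, 2 higher and 1 lower between the Post groups, and 1 of the 9 and 113 of all genes for the difference between arms. Turned values were 0.30 (Igf1r) and 0.26 (Irs1) between the Post groups, 0.16 (Igf2r) in the 2'-FL arm, 0.34 (Igf2r) and 0.35 (Insr) in the control arm, 0.25 (Igf2r) and 0.07 (Insr) over both arms and 0.01 (Igf1r) for the difference between arms.

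Same-numbered libraries did not all deviate together: over 12 such pairs the correlations were -0.23 to 0.42, the highest for library 1 of the Pre groups, and 5 of 12 were best with their own number. Within arms they were -0.12 to 0.22, with 3 of 6 best. The numbers were therefore not taken to pair the libraries. A replicate block gave 2 members higher between the Post groups, and Igf1r over Insr stayed at -1.44 with an adjusted p of 0.0625 by exact sign permutation. The replicate block with length and GC offsets gave 3 lower in the 2'-FL arm, 1 in the control arm, 4 lower and 1 higher over both arms, 2 higher and 1 lower between the Post groups and 0 for the difference between arms, with 4610, 2721 and 0 of all genes in the 2'-FL arm, between the Post groups and for that difference. Its turned values were 0.44 (Igf1r) and 0.38 (Irs1) between the Post groups, 0.47 (Igf2r) and 0.23 (Igfbp4) in the 2'-FL arm, 0.42 (Igf2r) and 0.37 (Insr) in the control arm, 0.45 (Igf2r) and 0.08 (Insr) over both arms, and 0.11 (Igf1r) and 0.05 (Igf2r) for the difference between arms, where Irs2 was -3.26.

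Without the filter on low counts 4 members were lower in the control arm (Igfbp3 and Igfbp5 besides Igf1r and Igfbp4) and 12 genes were called between the Pre groups, against 2. DESeq2 called 24 genes there, and the fit on only the 6 libraries compared called 1. For the control arm, DESeq2 called Igfbp3 lower (-1.21, adjusted p = 0.0276), and the fit on 6 libraries called Igfbp3 (-1.23, adjusted p = 0.0430) and Igfbp5 (-1.54, adjusted p = 0.0326) and lost Igfbp4 (-0.90, adjusted p = 0.0549). DESeq2 gave no adjusted p for Irs1 between the Post groups.

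Leaving out each library in turn gave these ranges of all genes called: 3279 to 5384 between the Post groups, 0 to 17 between the Pre groups, 265 to 1843 in the control arm and 424 to 3024 for the difference between arms, where the last was moved by 9 of the 12 libraries and the lowest Post count came without Post control 3. Members called ranged from 0 to 2 higher between the Post groups, 0 to 4 lower in the control arm and 1 to 3 lower for the difference between arms. Corrected, they ranged from 1 to 2 higher between the Post groups, 1 to 4 lower in the 2'-FL arm, 0 to 3 lower in the control arm, 0 to 1 higher over both arms and 0 to 1 lower for the difference between arms. The ratios ranged from -1.65 to -1.27 for Igf1r over Insr, -1.42 to -0.89 for Igfbp5 over Igfbp4 and -1.99 to -1.13 for Irs2 over Irs1. Directions turned with 1 library out for Irs1 between the Post groups (-0.54 to 0.07), Igf2r (-0.17 to 0.16) and Irs2 (-0.10 to 0.70) between the Pre groups, and Igf2r (-0.21 to 0.19) and Insr (-0.25 to 0.13) in the control arm. Corrected, they turned for Igf1r (-0.13 to 0.84), Igf2r (-0.25 to 0.06) and Igfbp5 (-0.85 to 0.22) between the Post groups, Igf1 (-1.07 to 0.07), Irs1 (-0.71 to 0.10) and Irs2 (-0.84 to 0.00) in the control arm, Insr over both arms (-0.02 to 0.17), and Igf1r (-0.42 to 0.55) and Igf2r (-0.18 to 0.18) for the difference between arms.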
